A study of Aethionema arabicum with 12 samples.

Results

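The ATG8 family was followed over 4 light conditions in seeds of *Aethionema arabicum* (Brassicaceae, the family of Arabidopsis). ATG8 proteins are small ubiquitin-like proteins that are joined to a membrane lipid and then coat the growing autophagosome, the vesicle that carries cell material to the vacuole for breakdown. They also hold the cargo receptors that choose what is enclosed, so they mark autophagosomes from their formation to their end. Autophagy recycles proteins and organelles when carbon or nitrogen runs short, and it is known in Arabidopsis to take part in the use of reserves in seeds and seedlings.

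Members were all gene models of the deposited table that the authors paired with the Arabidopsis codes of ATG8A to ATG8I. Of 24932 gene models, 9 met this rule, and all 9 had enough counts to be among the 15301 models tested. They covered 7 of the 9 Arabidopsis codes. ATG8A (AT4G21980) and ATG8C (AT1G62040) were each paired with 2 models. ATG8E (AT2G45170), ATG8F (AT4G16520), ATG8G (AT3G60640), ATG8H (AT3G06420) and ATG8I (AT3G15580) were paired with 1 model each. No model was paired with ATG8B (AT4G04620) or ATG8D (AT2G05630). The sources used here do not say how reads were divided among models that share a code, which makes the values of the 2 ATG8A and the 2 ATG8C models uncertain in that respect.

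Seeds were wild type of the Cyprus accession, kept on moist paper at 14 °C. They received white light (100 µmol m-2 s-1), lasting 23 h (called 1 d light), 7 d or 14 d, or 7 d with 7 d of darkness after it. The series concerns secondary dormancy that light induces, and only seeds that were intact and had not germinated were taken. Polyadenylated RNA was sequenced in 3 libraries per condition, 12 in all, and the labels do not say whether these came from separate batches of seeds. The p-values then set differences only against a spread estimated from these libraries, and part of that spread may be technical. Whole seeds were sampled, so a smaller number of cells of a kind and less RNA per cell cannot be told apart.

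Library totals were 3387609 to 3996148 counts after 1 d light, 1596668 to 2689668 after 7 d, 916523 to 2448092 after 14 d, and 1299536 to 1900418 after light and then darkness. The libraries of 1 d light were thus the deepest. The summed level of 8 gene models for seed storage and oil body proteins was 1083 to 1276 CPM (counts scaled to library size) after 1 d and 2073 to 5600 CPM in the other libraries. Raw counts overlapped in some of them, such as OLEO2 (Aa31LG9G1190), with 510 to 524 after 1 d and 484 to 552 after 14 d. In others they were higher after 14 d, such as SESA4 (Aa31LG5G10280), with 51 to 81 and then 192 to 308. How far the CPM of this list follows library totals was not tested. In the seed coat list of 5 models, TT10, TT12, BAN and TT2 had 0 to 3 counts in every library. The list's sum, nearly all of it MUM4, was 29.4 to 30.7 CPM after 1 d and 4.73 to 8.32 CPM later. The summed level of the 2 root models, nearly all of it RHD6, was 19.1 to 26.5 CPM after 1 d and 4.06 to 13.5 CPM later. EXPA7, the other root model, had 0 to 3 counts in every library. Of the endosperm models, NCED6 (Aa31LG8G10550) had 22.2 ± 0.87 CPM after 1 d and 90.8 ± 11.1 after 7 d (SD, n = 3 each), a log2 fold change of 2.03 with an adjusted p of 2.25e-07 in edgeR, while MAN7 (Aa31LG1G14990) had 135 ± 7.01 and 110 ± 6.65 CPM, a log2 fold change of -0.29 with an adjusted p of 0.0222. These levels in CPM moved between 1 d and the later conditions, as ATG8 levels in CPM did, and their part in the ATG8 differences was not tested.

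Summed over the 9 models and divided by gene length, the ATG8 level was 143 ± 12.9 CPM per kb after 1 d light, 375 ± 89.8 after 7 d, 450 ± 112 after 14 d and 470 ± 65.9 after light and then darkness (SD, n = 3 each). The 3 libraries of 1 d light had summed levels of 147, 153 and 128 CPM per kb. Those of 7 d light had 314, 332 and 478, those of 14 d light 551, 330 and 469, and the dark-kept seeds 474, 534 and 402. Every later library was above every library of 1 d light, and the 3 later conditions overlapped each other.

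The members differed in level as well as in change. Per kb of the authors' gene length, ATG8E (Aa31LG1G26720) was the most abundant, with a mean of 104 CPM per kb over the 12 libraries, and ATG8I (Aa31LG1G28430) followed with 80.5. ATG8E exceeded ATG8I in 12 of 12 libraries, and ATG8I exceeded the other 7 models in 12 of 12. ATG8G (Aa31LG10G14930) had 39.4 CPM per kb, ATG8C (Aa31LG8G11400) 38.0, ATG8A (Aa31LG6G3930) 28.5, ATG8F (Aa31LG2G12630) 25.8 and the second ATG8C model (Aa31LG2G8890) 19.2. The lowest means were 12.1 for the second ATG8A model (Aa31LG9G9760) and 11.5 for ATG8H (Aa31LG5G16940). This order rests on the authors' gene length, and whether introns are in it is not stated. Without division by length, both ATG8A models had higher CPM after 1 d light (54.1 and 62.0) than ATG8E (43.5) and ATG8I (41.8), and ATG8I was above ATG8E in 4 of 12 libraries.

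For many neighbours in this order the difference was small beside the spread between libraries. The difference to the next model was smaller than the larger of both SDs for 2 of 8 neighbouring pairs after 1 d light, 5 of 8 after 7 d, 5 of 8 after 14 d and 1 of 8 after light and then darkness. After 1 d light, ATG8F (16.7 ± 3.15 CPM per kb) and the ATG8C model Aa31LG8G11400 (16.6 ± 1.11) were such a pair, and after 7 d ATG8G (44.5 ± 8.86) and the same ATG8C model (43.1 ± 9.40) were another. These SDs leave out that all models were measured in the same libraries. Within libraries, ATG8F was above that ATG8C model in 2 of 3 after 1 d, and ATG8G was above it in 3 of 3 after 7 d. ATG8E and ATG8I were also such a pair after 7 d and 14 d, though ATG8E was higher in 3 of 3 libraries each time. ATG8H held the last place after 1 d light, with 1.59 ± 0.04 CPM per kb, and the ATG8A model Aa31LG9G9760 held it after 7 d, with 10.3 ± 3.01.

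**Figure D1:**
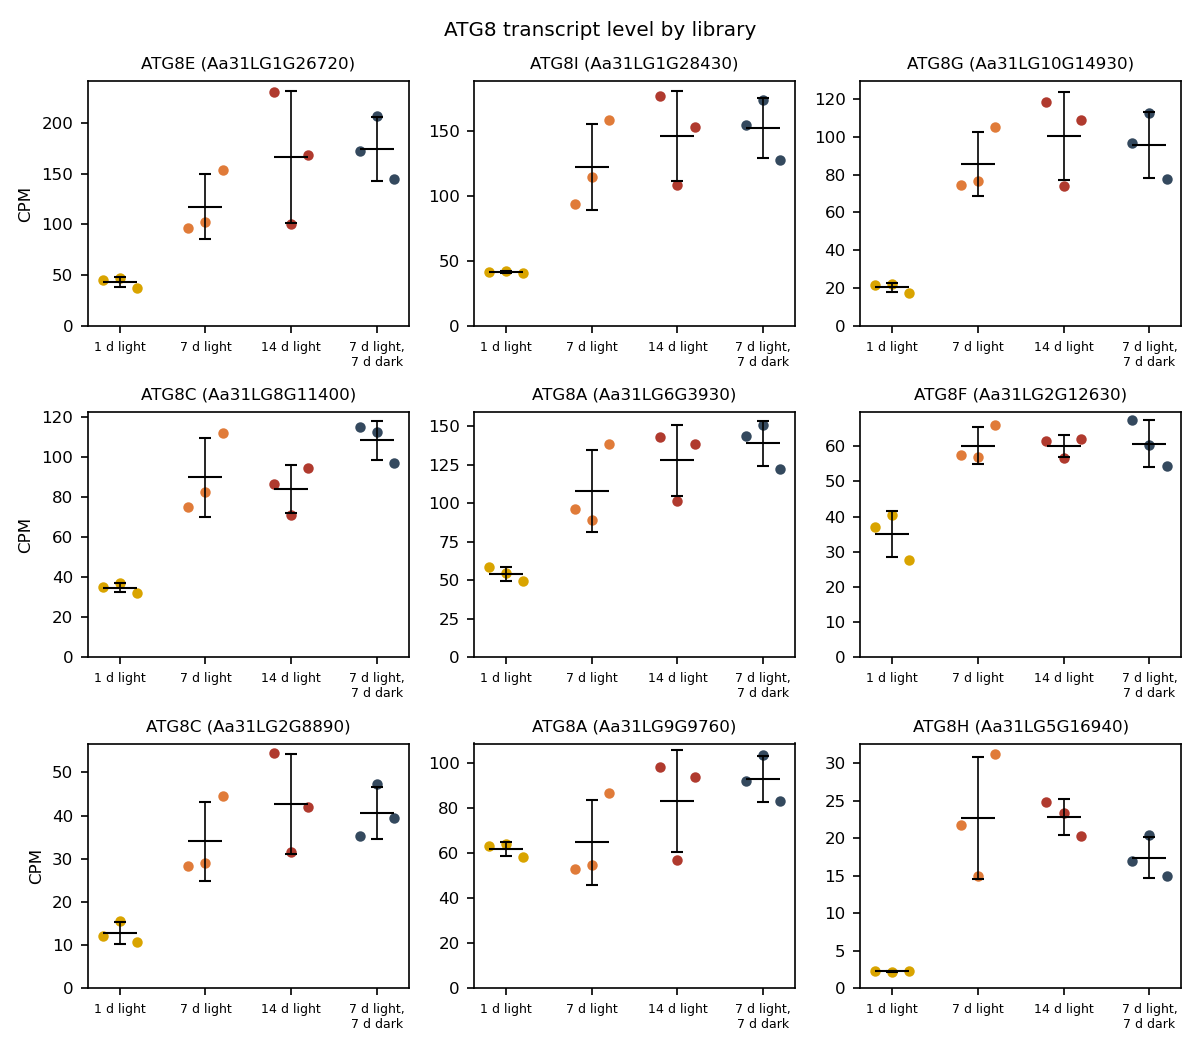
Transcript level (CPM, linear axis from 0) of the 9 ATG8-paired gene models in 4 conditions. Coloured points are single libraries, and black bars give the mean and SD of 3. In 8 models every later library lies above the libraries of 1 d light, while the ATG8A model Aa31LG9G9760 overlaps at 7 d and 14 d.

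The first week was read from 7 d against 1 d of light. These groups differ in time on moist paper as well as in light, and no dark group of either age was sampled. Light and time thus cannot be told apart, here or in any comparison of groups of unequal seed age. Of the 9 ATG8 models, 8 rose and 0 fell, and the groups did not overlap for the same 8. Over all 15301 tested models 30.7% were called higher and 29.7% lower, and 69.2% had groups that did not overlap. The median log2 fold change of the 9 models was 1.38, beside 0.02 over all tested models. A call is an adjusted p under 0.05 in the quasi-likelihood test of edgeR, adjusted over all tested models by the Benjamini-Hochberg method, and all adjusted p-values come from it.

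ATG8H and ATG8I form a separate branch of the family in Arabidopsis, whose proteins end in the glycine that is joined to the lipid and so need no trimming by the protease ATG4. ATG8H had 2.29, 2.18 and 2.26 CPM in the libraries of 1 d light and 21.8, 15.0 and 31.2 CPM after 7 d. These levels rested on 8 to 10 counts per library after 1 d and 34 to 59 counts after 7 d. Its log2 fold change was 3.26 ± 0.28 (SE), with an adjusted p of 1.15e-06, the largest of the 9.

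ATG8I had 42.0, 42.3 and 41.0 CPM after 1 d light and 94.0, 114 and 158 CPM after 7 d. The log2 fold change was 1.54 ± 0.20, with an adjusted p of 3.49e-05. All libraries of 7 d light were above those of 1 d, and the spread among them was much wider than among the libraries of 1 d.

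ATG8E, ATG8F and ATG8G belong to the other branch, whose proteins carry extra residues that ATG4 removes. ATG8G had 21.9, 22.1 and 17.6 CPM after 1 d and 74.5, 76.7 and 105 CPM after 7 d, and rose by 2.04 ± 0.20 on the log2 scale (adjusted p 3.4e-06). ATG8E had 45.3, 47.5 and 37.8 CPM after 1 d and 96.3, 102 and 154 CPM after 7 d, and rose by 1.42 ± 0.26 (adjusted p 0.000477). ATG8F had 37.0, 40.4 and 27.7 CPM after 1 d and 57.5, 56.9 and 66.2 CPM after 7 d, the smallest of the 8 rises, 0.78 ± 0.14 (adjusted p 0.000397). In all of these the libraries of the conditions stood apart.

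The ATG8A and ATG8C models also belong to the branch that ATG4 trims. For ATG8C Aa31LG8G11400 the libraries had 35.0, 36.9 and 32.3 CPM after 1 d and 74.9, 82.5 and 112 CPM after 7 d, which is a log2 difference of 1.36 ± 0.16 (adjusted p 1.03e-05). For ATG8C Aa31LG2G8890 they had 12.1, 15.6 and 10.8 CPM and then 28.4, 29.1 and 44.5 CPM, which is a log2 difference of 1.38 ± 0.23 (adjusted p 0.000212). Both ATG8C models thus had similar fold changes at different levels.

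The ATG8A models had different fold changes, and the difference between them was not tested. Aa31LG6G3930 had 58.3, 54.6 and 49.4 CPM after 1 d and 96.3, 89.1 and 139 CPM after 7 d, and rose by 0.98 ± 0.17 on the log2 scale (adjusted p 0.000329). Aa31LG9G9760 had 63.4, 64.2 and 58.4 CPM after 1 d and 53.1, 54.7 and 86.5 CPM after 7 d. Its groups overlapped, and its log2 fold change of 0.04 ± 0.20 did not pass the test (adjusted p 0.88). Replicate 3 of 7 d light, the shallowest of that condition, gave the highest value of all 9 models there.

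As a share of the summed CPM per kb, ATG8H was 1.12% ± 0.13 after 1 d light and 4.24% ± 0.91 after 7 d, and ATG8G was 7.48% ± 0.30 and 12.0% ± 0.46 (SD, n = 3 each). The ATG8A model Aa31LG9G9760 went the other way, from 6.93% ± 0.29 to 2.74% ± 0.13, and ATG8F from 11.6% ± 1.19 to 7.85% ± 1.11. ATG8E held 25.3% ± 0.72 after 1 d, 26.0% ± 0.72 after 7 d, 30.0% ± 4.71 after 14 d and 30.8% ± 1.32 after light and then darkness. The shares depend on the gene lengths. As a share of summed CPM the ATG8A model Aa31LG9G9760 was 20.2% after 1 d and 9.12% after 7 d, and ATG8E was 14.2% and 16.6%. All shares are descriptions and were not tested.

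ATG8 counts grew less than in proportion to library size within a condition, and this bears on every comparison with 1 d light. Across the 12 libraries, with each condition's mean removed, the slope of log count on log library total was 0.18 for ATG8E, 0.40 for ATG8A Aa31LG9G9760, 0.41 for ATG8C Aa31LG2G8890, 0.44 for ATG8I and 0.46 for ATG8G. It was 0.59 for ATG8A Aa31LG6G3930, 0.70 for ATG8C Aa31LG8G11400, 0.76 for ATG8H and 0.86 for ATG8F. A slope of 1 is strict proportion, and the median slope of all tested models was 1.09. It was 1.07 among the 10094 tested models within the range of mean reads per base that ATG8 models span. That range is wide, from 0.0207 for ATG8H to 0.186 for ATG8E, where the median of all tested models was 0.0382. Slopes of models as densely covered as ATG8E were not taken separately.

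Raw counts, with no scaling for depth, separated the conditions in some models and not in others. ATG8E had 180, 174 and 165 counts after 1 d light and 261, 232 and 242 after 7 d, although the mean library total was 0.596 times that of 1 d. ATG8G had 87, 81 and 77 counts and then 202, 174 and 165, and ATG8I had 167, 155 and 179 and then 255, 259 and 249. In 6 of 9 models (both ATG8C models, ATG8E, ATG8G, ATG8H and ATG8I) every raw count of 7 d light was above every raw count of 1 d, beside 4.54% of all tested models. The raw counts overlapped for ATG8F, with 147, 148 and 121 and then 156, 129 and 104, and for ATG8A Aa31LG6G3930, with 232, 200 and 216 and then 261, 202 and 218. For ATG8A Aa31LG9G9760 every raw count of 7 d light was below those of 1 d.

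A fit with no scaling for depth was added after seeing the data. Over all 15301 tested models it called 301 higher and 6181 lower in 7 d against 1 d, with a median log2 fold change of -0.85. ATG8H (2.38) and ATG8G (1.14) were called higher in that fit, ATG8A Aa31LG9G9760 (-0.88) was called lower, and the other 6 members were not called. ATG8E was at 0.50 with an adjusted p of 0.102 there, ATG8I at 0.61 with 0.0788, and ATG8F at -0.10 with 0.831.

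**Figure D2:**
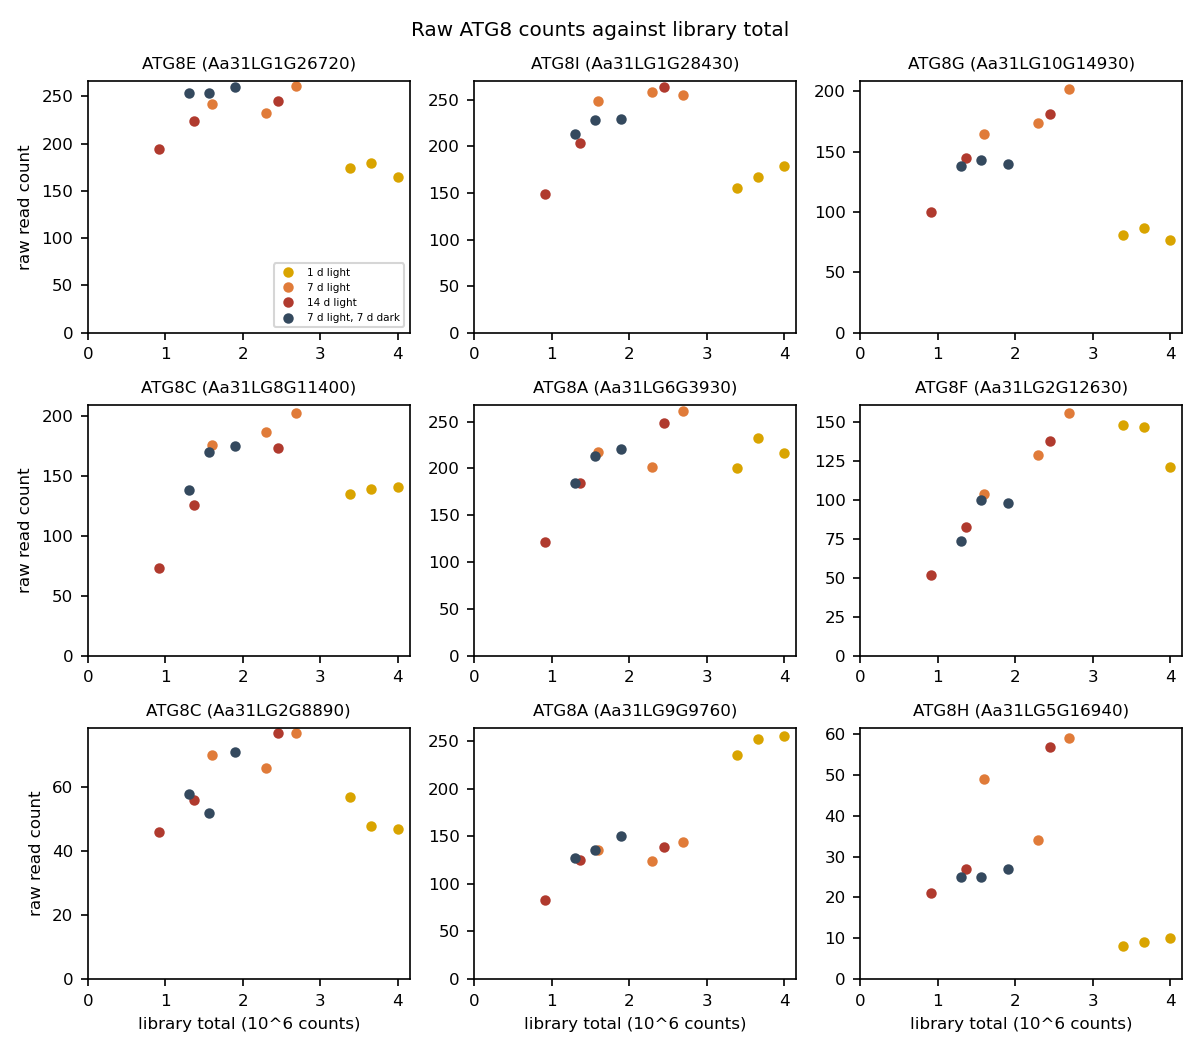
Raw read count of each ATG8-paired model (vertical) against library total (horizontal, scale on the axis), 1 point per library, coloured by condition. The 3 libraries of 1 d light lie at the right, and in ATG8E, ATG8G and ATG8H every shallower library has a higher raw count than they do.

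When the log2 library total was added to the fit as a covariate, a setting chosen after seeing the data, all 8 rises kept their direction and call. ATG8H had a log2 fold change of 3.04 in that fit, ATG8G 1.57, ATG8C Aa31LG8G11400 1.01, ATG8I 1.01 and ATG8C Aa31LG2G8890 0.89. ATG8E moved from 1.42 to 0.72, ATG8A Aa31LG6G3930 from 0.98 to 0.59 and ATG8F from 0.78 to 0.61. ATG8A Aa31LG9G9760 was called lower there, at -0.50 with an adjusted p of 0.000731. Only the 3 libraries within each condition inform the covariate, and the depth of the libraries of 1 d light lies outside the range of the others.

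After 14 d of light, 8 of 9 ATG8 models were higher than after 1 d, the same 8, none was lower, and the groups did not overlap for these 8. Over all tested models 31.8% were called higher, 31.6% were called lower and 68.4% had groups that did not overlap. ATG8H had 24.9, 23.4 and 20.2 CPM after 14 d and a log2 fold change of 3.31 ± 0.30. ATG8G had 118, 74.2 and 109 CPM (2.26 ± 0.21), ATG8E 230, 100 and 168 CPM (1.90 ± 0.27) and ATG8I 177, 108 and 153 CPM (1.78 ± 0.21). The remaining called models ranged from 0.77 ± 0.15 for ATG8F to 1.66 ± 0.24 for ATG8C Aa31LG2G8890, and the adjusted p of the 8 reached 0.000556 at most.

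ATG8A Aa31LG9G9760 had 98.3, 57.0 and 93.7 CPM after 14 d, around the 58.4 to 64.2 CPM of 1 d light, and its log2 fold change of 0.38 ± 0.21 did not pass (adjusted p 0.134). Without replicate 2 of 14 d light it was 0.61 and passed, with an adjusted p of 0.00969, and with the library total as covariate it was -0.52 and was called lower. In raw counts, ATG8E, ATG8G and ATG8H, 3 of 9, were higher in every library of 14 d than in every library of 1 d, at a mean library total 0.428 times as large, beside 1.53% of all tested models. With the covariate ATG8E had a log2 fold change of 0.67, ATG8I 0.92, ATG8C Aa31LG2G8890 0.86, ATG8A Aa31LG6G3930 0.58, ATG8C Aa31LG8G11400 0.73, ATG8G 1.47 and ATG8F 0.51, all still called. With no scaling for depth ATG8H (1.94) and ATG8G (0.80) were called higher and ATG8A Aa31LG9G9760 (-1.10) lower, where the median of all tested models was -1.37.

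The second week of light, 14 d against 7 d, brought no called difference in any of the 9 models. Unadjusted p was under 0.05 for 0 of 9 in edgeR, and DESeq2 called 0. Over all tested models 0.163% were called higher, 0.144% were called lower and 11.9% had groups that did not overlap, beside 0 of 9 here. Log2 fold changes of the members ran from -0.10 to 0.47, with a median of 0.24. Leaving out replicate 2 of 14 d light, the deepest library of its condition, brought a call for ATG8E, with a log2 fold change of 0.78 and an adjusted p of 0.0392. In that fit 1662 of all 15363 tested models (10.8%) were called. Chi-square per degree of freedom, which grows as the counts of a pair of libraries differ more, was 1.38 between replicates 1 and 3 of 14 d light. Replicate 2 had 7.78 and 6.45 with these. Replicates 1 and 2 of 7 d light had 1.31, and replicate 3 had 5.99 and 5.65 with them. Each group thus held 1 library apart from the others, and the part of these libraries in the lack of calls was not tested.

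Replicate 1 of 14 d light, with 916523 counts, and replicate 2, with 2448092, had the lowest and the highest total of that condition. The shallow library was above the deep one in all 9 models, by 0.11 to 1.20 on the log2 scale with a median of 0.68, while the median over all tested models was -0.04. For ATG8E the raw counts were 194 and 245, a 1.26-fold difference beside a 2.67-fold difference in library total. Depth and level cannot be told apart in this pair of libraries.

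Seeds kept for a second week in darkness were compared with seeds of the same age that stayed in light for 14 d. Again 0 of 9 ATG8 models were called in edgeR, with 1 of 9 at an unadjusted p under 0.05, and DESeq2 called 0. Over all tested models 6.05% were called higher, 7.02% were called lower and 27.7% had groups that did not overlap, beside 1 of 9 ATG8 models. That model was ATG8C Aa31LG8G11400, with 115, 112 and 97.1 CPM after darkness and 86.5, 70.9 and 94.5 CPM after 14 d light. Its log2 fold change was 0.38 ± 0.16 with an adjusted p of 0.147, and with the library total as covariate it was 0.39 and passed, with an adjusted p of 0.00628.

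ATG8E had 172, 207 and 144 CPM in the dark-kept seeds, within the 100 to 230 CPM of 14 d light. Across the 9 models the log2 fold changes of darkness against 14 d light ran from -0.40 to 0.38 with a median of 0.08. ATG8H had 16.9, 20.4 and 15.0 CPM after darkness, and only 20.4 lay within the 20.2 to 24.9 CPM of 14 d light.

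Against 7 d light, the condition from which the dark week began, 0 of 9 models were called in edgeR, 2 of 9 had an unadjusted p under 0.05, and DESeq2 called 0. Over all tested models 8.42% were called higher, 9.99% were called lower and 33.5% had groups that did not overlap, beside 0 of 9 here. That split of 1289 higher and 1529 lower was 968 and 1832 with total-count scaling, 1988 and 1383 with gene length offsets, and 2017 and 1572 with length and read density offsets. The ATG8 models with the small unadjusted p were ATG8E, higher by 0.58 ± 0.26 on the log2 scale (adjusted p 0.139), and ATG8A Aa31LG9G9760, with 0.54 ± 0.21 (adjusted p 0.0976). The 9 log2 fold changes ran from -0.35 to 0.58, with a median of 0.28. Without replicate 3 of 7 d light 4 of 9 models were called higher, in a fit that called 3684 of all 15678 tested models (23.5%), 1751 of them higher.

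Against 1 d light, all 9 models were higher in the dark-kept seeds, and none of the groups overlapped. Over all tested models 33.2% were called higher, 35.5% were called lower and 78% had groups that did not overlap. ATG8H had a log2 fold change of 2.90 ± 0.32 and ATG8G, with 96.7, 112 and 77.7 CPM, of 2.21 ± 0.21. ATG8E reached 1.998 ± 0.27, and ATG8I, with 154, 174 and 128 CPM, 1.86 ± 0.21. ATG8F had 67.6, 60.3 and 54.4 CPM and a log2 fold change of 0.80 ± 0.15.

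ATG8A Aa31LG9G9760 had 92.0, 103 and 83.2 CPM after darkness and a log2 fold change of 0.58 ± 0.20 against 1 d light, with an adjusted p of 0.0226. That call was lost with total-count scaling (adjusted p 0.102), and with the library total as covariate the log2 fold change was -0.26 (adjusted p 0.147). Leaving out any replicate of 1 d light, or replicate 1 or 2 of the dark-kept seeds, also ended it, with an adjusted p of up to 0.0913. The other 8 kept their call with the covariate, ATG8E at 0.90, ATG8I at 1.05, ATG8C Aa31LG2G8890 at 0.89 and ATG8A Aa31LG6G3930 at 0.75. In raw counts 4 of 9 (ATG8E, ATG8G, ATG8H and ATG8I) were higher in every dark-kept library than in every library of 1 d light, at a mean library total 0.431 times as large, beside 4.08% of all tested models. With no scaling for depth ATG8H (1.499), ATG8G (0.78) and ATG8E (0.57, adjusted p 0.0464) were called higher and ATG8A Aa31LG9G9760 (-0.84) lower, where the median of all tested models was -1.45.

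**Figure D3:**
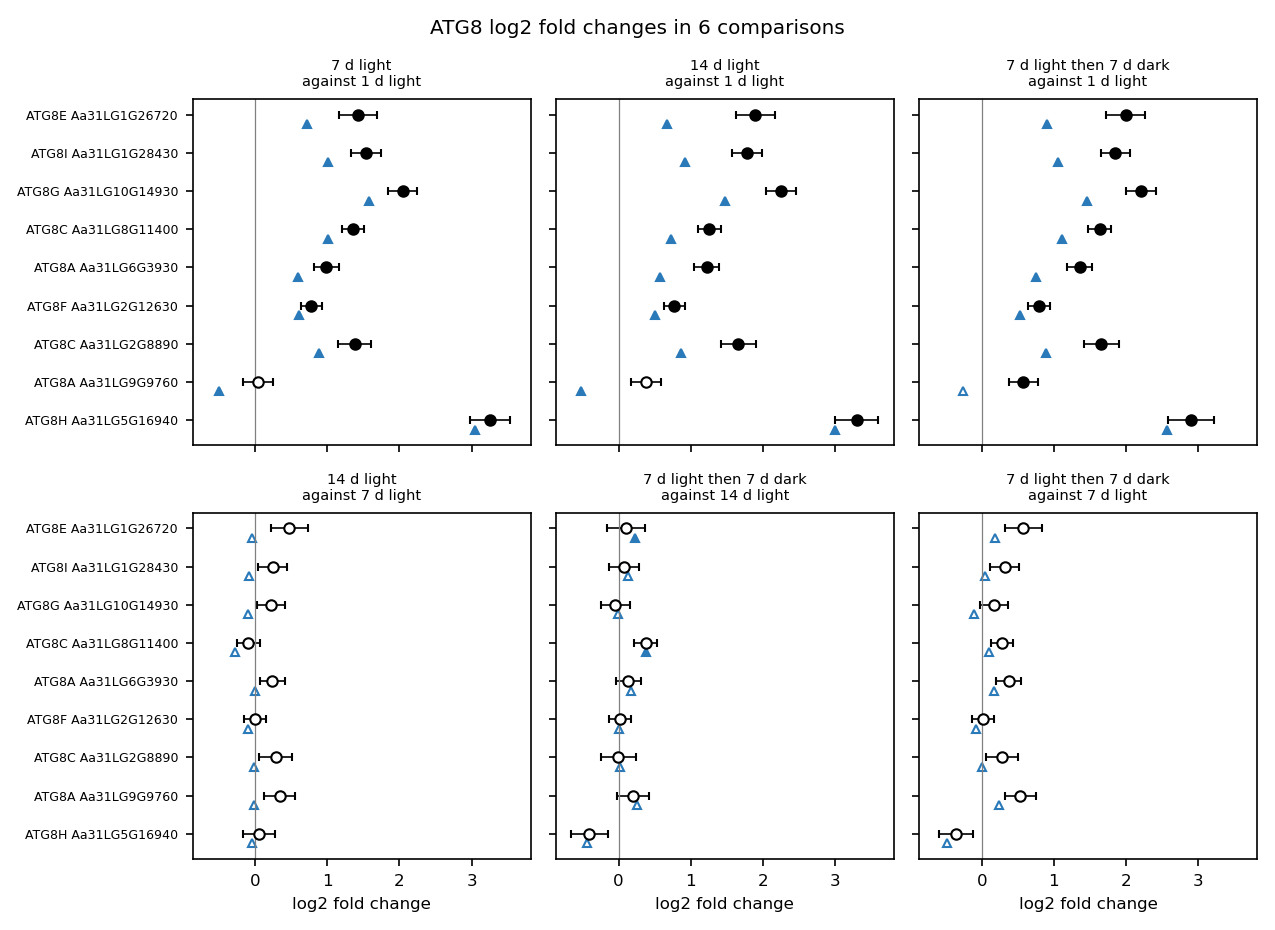
Log2 fold change of the 9 ATG8-paired models in 6 comparisons. Circles with SE bars are the fit with 4 condition means, triangles the fit with the library total as covariate, and filled symbols passed an adjusted p of 0.05. Differences against 1 d light (top row) are positive for all 9 circles, those among the later conditions (bottom row) lie near 0, and ATG8A Aa31LG9G9760 has triangles below 0 in the top row.

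The members varied together across libraries. Pearson's r of log2 CPM over the 12 libraries was 0.43 to 0.99 for the 36 pairs of members, with a median of 0.94, and the lowest value was between ATG8A Aa31LG9G9760 and ATG8H. The libraries share differences in depth and condition, so these values are only descriptions. The 3 models most like ATG8E among 14705 with a paired Arabidopsis gene were Aa31LG1G16800 (succinate dehydrogenase 2-3, r = 0.999), Aa31LG1G19140 (a DUF1264 protein, r = 0.999) and Aa31LG2G18620 (TBP-associated factor II 15, r = 0.998). Most like ATG8H were Aa31LG8G11110 (an alpha/beta-hydrolase, r = 0.990), Aa31LG10G15180 (a protein kinase, r = 0.987) and Aa31LG4G16350 (MYB94, r = 0.984).

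The rest of the autophagy pathway was read from 6 lists that hold 59 gene models, 54 of them tested. In 7 d against 1 d of light, 22 of 54 rose and 7 fell, with a median log2 fold change of 0.27. Of these 29 calls, 19 were kept in all 15 alternative settings that scale for depth. Groups did not overlap for 34 of all 59 models, untested ones included. Over all tested models 30.7% were called higher, 29.7% were called lower and 69.2% had groups that did not overlap, and the counts of single lists are read against the same shares. With no scaling for depth 1 of 54 was called higher and 11 lower, beside 301 higher and 6181 lower of all 15301 tested models. The ATG8 median of 1.38 lay above the medians of all 6 lists, the highest of which was 0.44, and this difference was not tested. The slopes of ATG8 counts on library total were 0.18 to 0.86, beside a median of 1.09 over all tested models. Slopes of the 6 lists were not taken, so their dependence on depth is not known beside that of ATG8.

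The conjugation machinery joins ATG8 to its lipid, and 6 of its 10 tested models rose and 0 fell. ATG12A (Aa31LG8G1170), a ubiquitin-like partner of ATG5, went from 11.3 ± 1.37 to 40.4 ± 12.3 CPM (SD, n = 3 each), or by 1.80 ± 0.25 on the log2 scale (adjusted p 4.45e-05). ATG4A (Aa31LG1G25800), the protease that trims ATG8, went from 119 ± 4.30 to 169 ± 3.96 CPM, 0.50 ± 0.11 (adjusted p 0.00156). ATG16 (Aa31LG3G6060), which anchors the ATG12-ATG5 complex, had 52.0 ± 4.00 and 55.5 ± 3.48 CPM and was not called.

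Of 8 tested models of the initiation kinase complex, which starts autophagosome formation, 4 rose and 1 fell. ATG101 (Aa31LG1G15480), a subunit of the complex, went from 41.0 ± 3.02 to 84.6 ± 7.97 CPM, 1.04 ± 0.14 (adjusted p 3.52e-05), and the kinase model ATG1T (Aa31LG10G5070) had a log2 fold change of 1.46 ± 0.24. Of 8 tested models of the lipid delivery list, 3 rose and 1 fell. ATG18B (Aa31LG2G20000), of a family that binds phosphoinositides, rose by 0.80 ± 0.12, and ATG9 (Aa31LG5G5690), the membrane protein of the pathway, had a log2 fold change of -0.65 ± 0.15. In the list of the PI3K complex, which makes the lipid signal, 2 of 7 rose and 1 fell, among them ATG14A (Aa31LG4G7980) at 1.14 ± 0.19.

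Receptors and adaptors link cargo to ATG8, and 5 of 12 tested models rose and 3 fell. ATI2 (Aa31LG5G590), an ATG8-interacting protein, rose by 0.84 ± 0.20, with raw counts of 328 to 415 after 1 d and 328 to 346 after 7 d. RPN10 (Aa31LG6G16540), a proteasome subunit that also serves as an autophagy receptor, had -0.81 ± 0.11. Of 9 tested regulators 2 rose and 1 fell. KIN10 (Aa31LG5G12530), an energy-sensing kinase, rose by 0.53 ± 0.10. TGA9 (Aa31sc137G50), a transcription factor known in Arabidopsis to activate ATG8 genes, went from 84.4 ± 3.19 to 41.7 ± 4.05 CPM, -1.02 ± 0.14 (adjusted p 4.55e-05). HY5 (Aa31LG3G15930), a light-signalling factor known in Arabidopsis to repress ATG8 genes, rose by 0.94 in this comparison and lost its call with the covariate, at 0.30.

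In 14 d against 7 d of light 0 of the 54 tested models of the lists were called in edgeR, and 2 had an unadjusted p under 0.05. Leaving out replicate 2 of 14 d light raised the count to 6, in the fit that called 10.8% of all tested models.

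In darkness against 14 d of light, 7 of 54 rose and 1 fell, where 6.05% of all tested models were called higher and 7.02% lower. ATG18B went from 61.3 ± 9.53 to 115 ± 7.82 CPM, or by 0.89 ± 0.12 on the log2 scale (adjusted p 0.000518). ATG16 went from 46.4 ± 6.09 to 81.5 ± 6.38 CPM, 0.78 ± 0.13 (adjusted p 0.00139), and KIN10 from 91.3 ± 8.53 to 137 ± 4.04 CPM, 0.58 ± 0.10 (adjusted p 0.00237). These 3 were called in all 15 alternative settings that scale for depth. With no such scaling 0 of 54 were called, and 0.895% of all tested models.

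ATG4A was higher by 0.59 on the log2 scale (adjusted p 0.00418) and lost its call when only the 6 libraries compared were fitted. ATG18F (0.62), NBR1 (0.41), the cargo receptor for ubiquitin-marked proteins, ATI1 (0.53) and TGA9 (-0.68) each lost theirs in 5 or more of the 15. With the covariate 15 of 54 were called, beside 28.8% of all models tested in that fit, and with only 6 libraries 3, beside 6.47%.

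Against 7 d light, 4 of 54 rose and 2 fell in the dark-kept seeds, where 8.42% of all tested models were called higher and 9.99% lower. The falls were 1 model of the PI3K complex and 1 regulator, each with an adjusted p of 0.023. ATG18B, ATG16, ATG4A and NBR1 were higher, by 0.87, 0.55, 0.49 and 0.61 on the log2 scale, and kept their call in the 15 settings that scale for depth. With no such scaling 0 of 54 were called, and 2.39% of all tested models. NBR1 (Aa31LG4G9790) went from 431 ± 23.0 to 658 ± 13.1 CPM. Against 1 d light, 20 of 54 were higher and 7 lower after 14 d of light, where 31.8% of all tested models were called higher and 31.6% lower. After darkness 27 were higher and 7 lower, where 33.2% were called higher and 35.5% lower. Of the 27 calls after 14 d 11 were kept in all 15 settings that scale for depth, and of the 34 after darkness 19 were. With no scaling for depth 1 was higher and 30 lower after 14 d, and 1 was higher and 29 lower after darkness. Of all 15301 tested models, that fit called 220 higher and 10867 lower after 14 d, and 320 higher and 10699 lower after darkness.

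**Figure D4:**
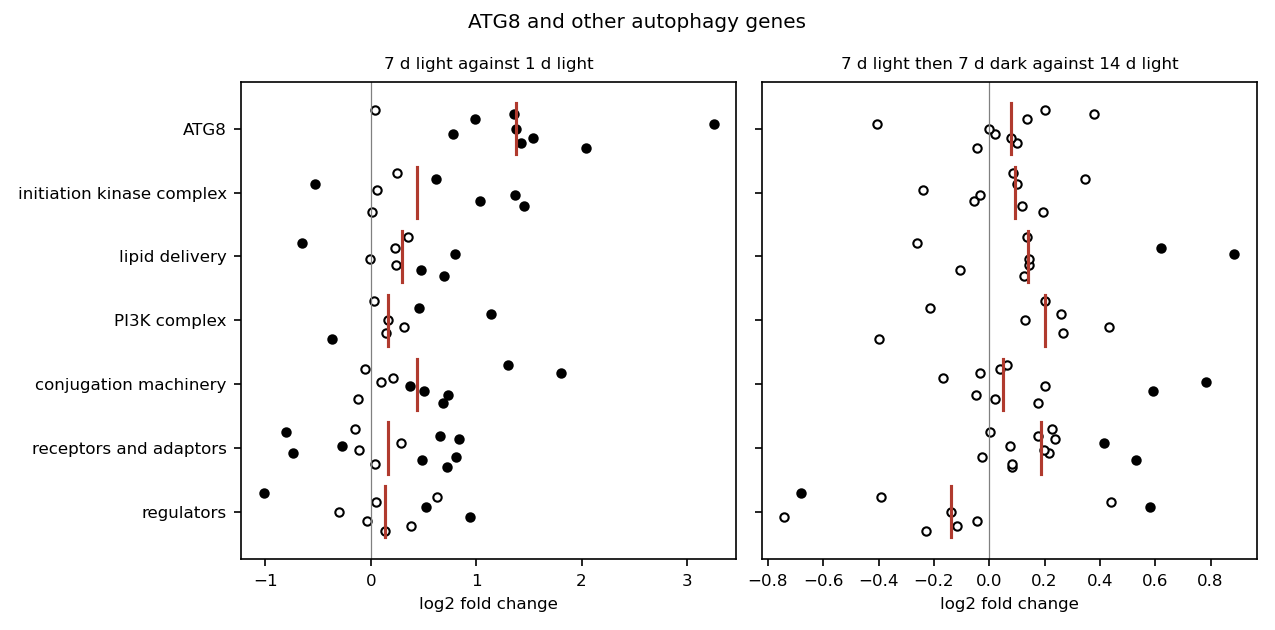
Log2 fold change of tested models of the ATG8 family and 6 other autophagy lists, in 7 d against 1 d of light (left) and darkness against 14 d of light (right, on a narrower axis). Filled circles passed an adjusted p of 0.05, and red bars are medians. At left the ATG8 median is 1.38 and the other medians are 0.44 or less, and at right no ATG8 model is filled.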

How the data were processed

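Raw read counts per gene model, RPKM values and gene lengths were deposited by the authors in 1 table. RPKM values deposited by the authors equal counts scaled to library total and gene length, within a relative difference of 3.45e-08, and entered no test. Gene length is the authors' (46.6% are multiples of 3), and whether introns are in it is not stated. The tools named are HTSeq 0.11.2, Bowtie2 2.3.5.1, Trimmomatic and bcl2fastq 2.17.1, with the build TAIR10, per the submitters' processing notes. The sources used here give neither their roles nor the strand setting or how duplicates were handled.

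Counts were fitted with edgeR 4.0.16 (R 4.3.3) in 1 model of 12 libraries with 4 condition means, TMM scaling, the default filter, the two-sided quasi-likelihood F-test and Benjamini-Hochberg adjustment over 15301 models at 0.05. The common dispersion was 0.0177. Untested models held 0.379% of counts. CPM uses TMM-scaled totals, and SE was taken as the size of a log2 fold change divided by the root of its F statistic. Reads per base of gene length reached 0.2175 in ATG8 models. Among 23909 models of 300 bp or more the highest value was 0.996 and 0 exceeded 1. Likeness is Pearson's r of log2 CPM (prior count 2), and the 3 models most like the ATG8 model of the highest mean CPM and of the largest change in 7 d against 1 d of light were named. All ATG8 models and any tested list member could be named, called ones by smallest adjusted p. The scripts were tested on simulated data.

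Replicates differed by more than sampling noise (chi-square per degree of freedom 1.14 to 7.78). Alternatives comprised 8 planned kinds and 3 added after seeing the data (length with read density offsets, library total as covariate, and no scaling for depth, in which all libraries have the same size). Members and lists were chosen with earlier results of these data known. No sequences were used here.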

Additional observations from a re-analysis of the deposited data

How the results depend on the processing

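In comparisons with 1 d light, the 8 ATG8 rises of 7 d and of 14 d, and 8 of 9 after darkness, were called in all 15 settings that scale for depth. With no scaling for depth, added after seeing the data, 3, 3 and 4 ATG8 models were called against 1 d light (7 d, 14 d, darkness), 1 of them lower each time, and 2, 2 and 3 of the called rises kept their call. Signs reversed in that fit for ATG8F (-0.10, -0.61 and -0.61) and ATG8A Aa31LG9G9760 (-0.88, -1.10 and -0.84), for ATG8A Aa31LG6G3930 in 14 d (-0.23) and darkness (-0.066), and for ATG8C Aa31LG8G11400 in 14 d (-0.16). The median of all tested models was -0.85, -1.37 and -1.45 in that fit, and it called 42.4%, 72.5% and 72% of them. It called 12 models of the other lists in 7 d against 1 d, and 0 in darkness against 14 d and against 7 d. ATG8A Aa31LG9G9760 changed sign in other settings too. In 7 d against 1 d it was -0.093 with total-count scaling, -0.50 with the library total as covariate and -0.23 to 0.14 over the replicates left out, and with the covariate it was -0.52 in 14 d against 1 d and -0.26 in darkness against 1 d. Counts of called ATG8 models moved from 0 among the later conditions. In 14 d against 7 d they were 0 to 1 over the replicates left out, in fits that called 0.0845% to 10.8% of all tested models. In darkness against 14 d they were 1 with length and read density offsets, which called 16.9% of all tested models. With the covariate, which called 28.8%, they were 2, ATG8E (0.23, adjusted p 0.0141) and ATG8C Aa31LG8G11400. In darkness against 7 d they were 1 with those offsets (23.5% of all tested models) and 0 to 4 over the replicates left out (10.3% to 23.5%). Among these uncalled differences the direction changed across settings in 9, 7 and 6 of 9 models, respectively. Across the settings that scale for depth it changed in 9, 7 and 3. Single members' values are given here for comparisons with 1 d light and for an unadjusted p under 0.05, a limit set after seeing the data. For the other autophagy lists, the count in 14 d against 7 d was 1 with the covariate and 0 to 6 over the replicates left out. Those fits called 1.69%, and 0.0845% to 10.8%, of all tested models. In darkness against 14 d (8) it was 3 with only the 6 libraries compared, 15 with the covariate and 4 to 9 over the replicates left out. Those fits called 6.47%, 28.8%, and 7.58% to 14.6% of all tested models. In darkness against 7 d (6) it was 10 with length offsets and 15 with the covariate, beside 22% and 28.7%. The cause was not tested.

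Replicate numbers did not pair the libraries: 18 correlations of same-numbered deviations ran from -0.47 to 0.48, 4 of them over 0.1. With a replicate block 8, 8 and 9 ATG8 models were called against 1 d light at 7 d, 14 d and after darkness. Of all tested models 56.4%, 60% and 66.1% were called there. The lists' count in darkness against 14 d was 5 with the block, beside 9.8% of all tested models. Total-count scaling moved the median log2 fold change of all tested models to -0.11, -0.16 and -0.24 against 1 d light (7 d, 14 d, darkness). ATG8H rested on 8 to 10 counts per library of 1 d light.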
